A study of Mus musculus with 2 samples.

Results

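The genes described here are 8 genes of the monocyte and dendritic lineages: Csf1r, Ly86, F13a1, Ccr2, Cx3cr1, Mpeg1, Batf3 and Siglech. They were taken by symbol from 24421 gene symbols, each with 1 RPKM value (reads scaled to the length of the gene and the size of the library) in each of 2 bulk RNA-seq libraries. Both libraries were made from total RNA of granulocyte-monocyte progenitors (GMPs), sorted by flow cytometry from the bone marrow of female mice with an F1 H-2b/d background. The NTB-GMP library came from non-tumor-bearing (NTB) mice, and the 4T1-GMP library from mice whose mammary tissue had been implanted with 4T1, a tumor line of the mouse mammary gland. Neither library had a replicate, and the labels give no number or age of mice. Differences below therefore compare 2 libraries, with no replicate check, and intervals cover counting error only, since PCR reads without molecular identifiers are not independent molecules.

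GMPs are bone marrow progenitors that give rise to neutrophils and to monocytes, and they lie close to the progenitors of dendritic cells. The transcription factors PU.1 and IRF8 act together to open the monocyte and dendritic programs, and mice that lack IRF8 make too many granulocytes. In a bulk library of sorted progenitors, genes of these programs are read from the cells that have begun to express them, so fewer cells of a type and less RNA per cell cannot be told apart.

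The NTB-GMP library had a size of 10180365 reads behind its RPKM and the 4T1-GMP library 30016263 reads, a ratio of 2.95. Rn45s, the ribosomal RNA precursor, held 17.0% and 6.98% of them. Leaving Rn45s out of both library sizes would move the log2 ratio of each gene by -0.16. RNAs of the GMP surface markers Kit, Cd34, Fcgr3 and Fcgr2b were present in both libraries, with Kit, Cd34 and Fcgr3 lower in 4T1-GMP. Kit had 78.5 and 49.1 RPKM, Cd34 154 and 59.4, Fcgr3 (CD16) 53.1 and 28.6, and Fcgr2b (CD32) 47.3 and 64.6 RPKM in NTB-GMP and 4T1-GMP, whereas Ly6a (Sca-1) and Slamf1 (CD150), which GMPs lack, were below 0.3 RPKM in both.

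The 8 genes spanned a wide range of levels, and their order was similar in both libraries. In NTB-GMP, F13a1 was highest at 49.1 RPKM, followed by Mpeg1 at 23.6, Ccr2 at 17.1, Csf1r at 12.1, Ly86 at 9.56 and Cx3cr1 at 3.72 RPKM. Batf3 at 0.552 RPKM and Siglech at 0.0820 RPKM were near the limit of detection. The 95% Poisson intervals of neighbors in this order overlapped for Csf1r and Ly86 and for Batf3 and Siglech, and not for the other neighbors. In 4T1-GMP the same 4 genes led, with F13a1 at 49.6, Mpeg1 at 12.4, Ccr2 at 10.2 and Csf1r at 7.89 RPKM. Below them, Cx3cr1 at 0.994 and Ly86 at 0.969 RPKM had overlapping intervals, as did Siglech at 0.0139 RPKM and Batf3, which was listed at 0. The intervals of Batf3 rest on recovered reads that are lower bounds, so its overlap with Siglech is not settled. Ly86 thus stood just behind Csf1r in NTB-GMP and far behind it in 4T1-GMP.

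**Figure D1:**
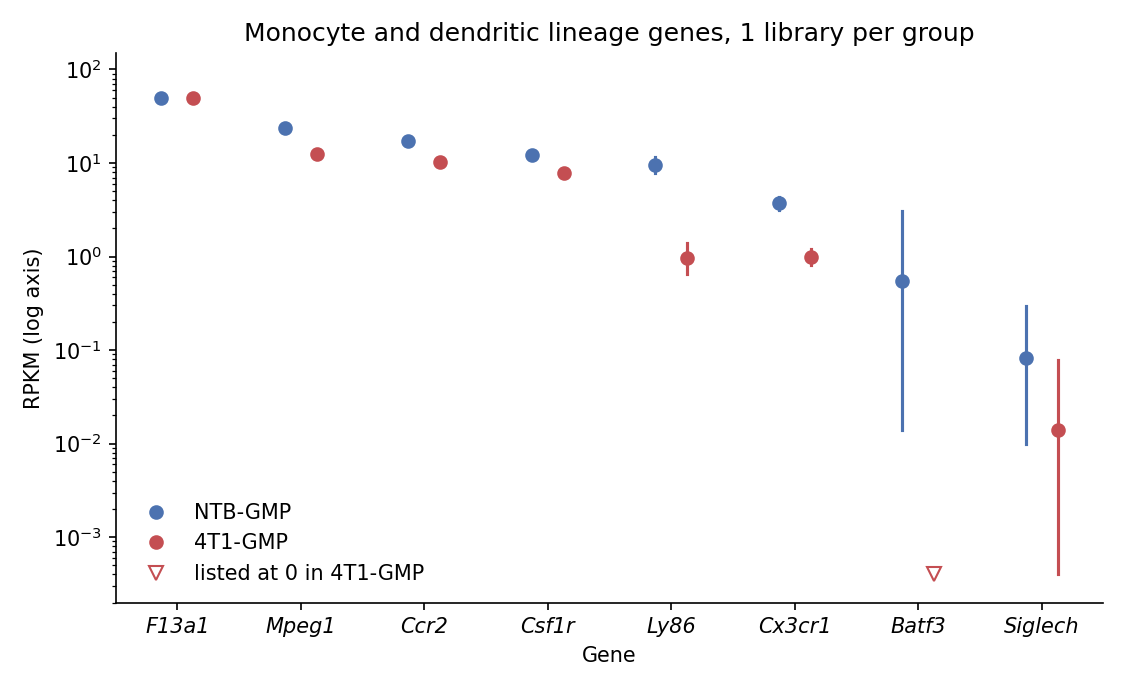
RPKM (log axis) of the 8 genes in NTB-GMP (blue) and 4T1-GMP (red), 1 library each, with 95% Poisson intervals on the reads as bars; the open triangle marks Batf3, listed at 0 in 4T1-GMP and drawn at the bottom of the axis. F13a1 is level at 49.1 and 49.6 RPKM, Mpeg1, Ccr2 and Csf1r lie somewhat lower in 4T1-GMP, and Ly86 drops from 9.56 to 0.969 RPKM. The bars of Mpeg1, Batf3 and Ly86 rest on reads that are or may be lower bounds, so they may be too wide.

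The comparison of 4T1-GMP with NTB-GMP asked whether progenitors of tumor-bearing mice carry less of the monocyte and dendritic program. Of the 8 genes, 6 reached 1 RPKM on average over both libraries (called tested below), and their differences were taken as log2(RPKM + 0.1), which understates the change of low genes. Ly86 and Cx3cr1 were at least 2-fold lower in 4T1-GMP, Mpeg1, Ccr2 and Csf1r were lower by less than 2-fold, and F13a1 was level. The median log2 ratio of the 6 genes was -0.82, against 0.05 over all 10378 genes that did so. Thus 2 of 6 genes were at least 2-fold lower and 0 of 6 at least 2-fold higher, where 4.92% of all genes tested were at least 2-fold lower and 3.25% at least 2-fold higher. When library sizes were counted without Rn45s, 3 of 6 were at least 2-fold lower, against 6.75% of all genes tested, and 2.51% of all genes tested were at least 2-fold higher.

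**Figure D2:**
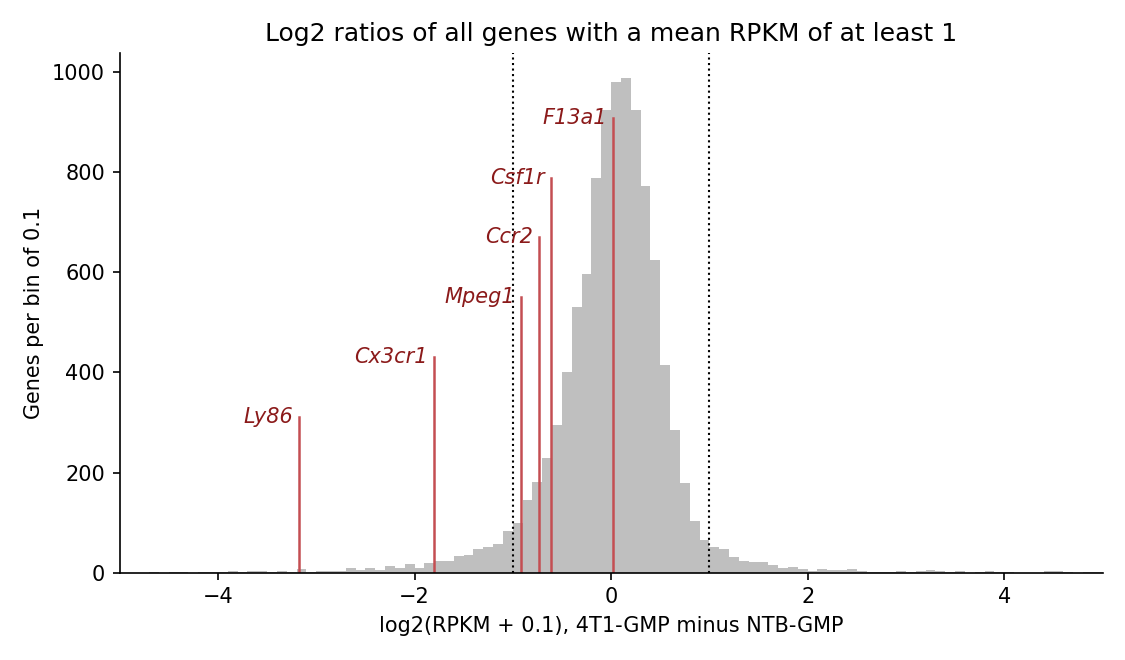
Number of genes per bin of 0.1 of the log2(RPKM + 0.1) difference, 4T1-GMP minus NTB-GMP, over the 10378 genes tested (gray), with the 6 tested genes of the lineage set as red lines of arbitrary height; dotted lines mark 2-fold. Ly86 (-3.18) and Cx3cr1 (-1.80) lie in the far left tail, Mpeg1 (-0.92), Ccr2 (-0.73) and Csf1r (-0.62) on the left shoulder, and F13a1 (0.02) at the center.

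The 3 receptors of the set were all lower in 4T1-GMP, to different degrees. Csf1r encodes the receptor for CSF1 and IL-34, on which monocytes and macrophages depend (GRCm38 chromosome 18, 61100598 to 61132149, plus strand). Its 479 reads in NTB-GMP gave 12.1 RPKM and its 918 reads in 4T1-GMP gave 7.89 RPKM, 1.54-fold lower in the latter (95% Clopper-Pearson interval on the reads 1.37 to 1.72). Ccr2 encodes the receptor for CCL2 through which monocytes leave the marrow (chromosome 9, 124101950 to 124113557, plus strand). It had 17.1 RPKM (623 reads) and 10.2 RPKM (1101 reads), 1.67-fold lower (interval 1.51 to 1.84). Cx3cr1 encodes the receptor for fractalkine and marks monocytes and the shared progenitor of macrophages and dendritic cells (chromosome 9, 119901616 to 120069879, minus strand). It had 3.72 RPKM (142 reads) and 0.994 RPKM (112 reads), 3.74-fold lower (interval 2.90 to 4.83). The interval of Cx3cr1 did not overlap those of Ccr2 and Csf1r, which overlapped each other. Among all genes tested, 1.46% had a lower log2 ratio than Cx3cr1, 8.40% than Ccr2 and 10.8% than Csf1r.

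Relatives of these receptors went in both directions. In the receptor family of Csf1r, Flt3, the receptor of early lymphoid and dendritic progenitors, had 12.6 and 2.34 RPKM, 5.38-fold lower in 4T1-GMP (interval 4.61 to 6.29). Pdgfrb was 2.97-fold lower (interval 2.52 to 3.49) and Kit, the stem cell factor receptor used in the sort, 1.60-fold lower (interval 1.54 to 1.66). The Csf1r interval overlapped that of Kit and lay below those of Flt3 and Pdgfrb. Ccr1, a chemokine receptor encoded within 200 kb of Ccr2, had 1.53 and 7.79 RPKM, 5.10-fold higher in 4T1-GMP (interval 3.76 to 7.09). Cxcr2, the receptor that draws neutrophils from the marrow, was 3.50-fold higher (interval 3.03 to 4.06), and Cxcr4, which retains cells there, was 1.43-fold lower (interval 1.35 to 1.52). Ccr3, also encoded nearby, stayed below 1 RPKM in both libraries. Of the ligands, Csf1 was itself detected in the progenitors at 6.80 and 3.69 RPKM, 1.84-fold lower (interval 1.49 to 2.26), while Il34, Ccl2, Ccl7 and Ccl12 were listed at 0 in both libraries. Cx3cl1, which encodes fractalkine, had 1 read in NTB-GMP and was listed at 0 in 4T1-GMP. The proteases that shed fractalkine were detected, with Adam10 at 40.8 and 46.3 RPKM and Adam17 at 20.4 and 12.4 RPKM.

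Mpeg1 encodes perforin-2, a pore-forming protein that macrophages use against ingested bacteria (chromosome 19, 12460779 to 12465283, plus strand). Its level was 23.6 RPKM in the former library and 12.4 RPKM in 4T1-GMP, 1.89-fold lower, and 5.72% of genes tested had a lower log2 ratio. The reads recovered from the RPKM were 260 and 405, with an interval of 1.61 to 2.22. They are lower bounds, since the gene length recovered with them, 1084 bases, is 4 times shorter than the 4334 bases of the GENCODE transcript. Taken 4 times, they are 1040 and 1620 reads, with an interval of 1.75 to 2.05. Mpeg1 lay close to the 2-fold line and passed it when Rn45s was not counted, at a log2 ratio of -1.08. Prf1, which encodes the perforin of cytotoxic lymphocytes, was listed at 0 in NTB-GMP and had 2 reads in 4T1-GMP.

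F13a1 and Ly86 lie next to each other as protein-coding genes on chromosome 13, 295 kb apart, and behaved differently. F13a1 encodes the A subunit of coagulation factor XIII, a transglutaminase that cross-links fibrin and that monocytes make (36867178 to 37050244, minus strand). Its 1963 reads in NTB-GMP gave 49.1 RPKM and its 5852 reads in 4T1-GMP gave 49.6 RPKM, or 101% of the NTB-GMP level, and its counting interval on the log2 scale ran from -0.06 to 0.09. Its log2 ratio of 0.02 was -0.15 without Rn45s in the library sizes, -0.18 after quantile normalization and -0.03 relative to the median of all genes, so its direction is not settled by these values. Ly86 encodes MD-1, the secreted partner that RP105 needs to reach the surface of B cells, macrophages and dendritic cells (37345208 to 37419036, plus strand). It had 9.56 RPKM (97 reads) and 0.969 RPKM (29 reads), 9.86-fold lower in 4T1-GMP (interval 6.46 to 15.5). The length recovered with these reads, 997 bases, is shorter than the shortest GENCODE transcript of 1134 bases, so the reads may be lower bounds and the interval too wide. Only 0.366% of genes tested had a lower log2 ratio than Ly86, whereas 46.8% had a lower one than F13a1. The intervals of these neighbors were far apart.

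Windows at start sites of these neighbors are shown as a description. The F13a1 window printed is the one with a motif match, and the window at the annotated start of the gene has none. The windows run from 250 bases before to 50 bases after a RefSeq start site (GRCm38.p6), 5′ to 3′ on the strand of the gene, at chr13:37345095-37345394 for Ly86 and at chr13:37049164-37049463 for the second of the F13a1 windows. Capitals mark a match to GAGGAAGT, a PU.1 motif.
Ly86: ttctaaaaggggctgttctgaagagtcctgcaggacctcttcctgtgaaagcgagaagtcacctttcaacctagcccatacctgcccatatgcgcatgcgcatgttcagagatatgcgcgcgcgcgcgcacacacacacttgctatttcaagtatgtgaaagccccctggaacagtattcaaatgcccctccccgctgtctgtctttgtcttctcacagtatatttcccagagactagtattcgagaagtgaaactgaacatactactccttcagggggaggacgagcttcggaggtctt
F13a1: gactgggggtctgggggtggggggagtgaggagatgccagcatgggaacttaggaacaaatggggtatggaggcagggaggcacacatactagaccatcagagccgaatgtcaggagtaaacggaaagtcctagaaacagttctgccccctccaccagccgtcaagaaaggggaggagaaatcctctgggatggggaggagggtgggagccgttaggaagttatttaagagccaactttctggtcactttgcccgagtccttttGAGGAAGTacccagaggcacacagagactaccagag
The F13a1 match lies from base 15 to base 22 after the start site. Motifs were searched on both strands: GAGGAAGT (PU.1), the composite element of ETS and IRF factors, the interferon response element, TGANTCA (AP-1) and TTGCNNAA (C/EBP). The motifs were found in 3.20%, 2.72%, 3.44%, 7.81% and 10.8% of all 32851 windows, respectively. Among 8 windows of 7 of the genes, the matches were the PU.1 motif of F13a1 and a C/EBP motif from base -169 to base -162 relative to the start site of Siglech. Ly86, Ccr2, Cx3cr1, Mpeg1 and Batf3 held none of these letters in their windows. The first F13a1 window, at chr13:37050195-37050494 and not printed here, held none of them either. These matches describe letters only.

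The partners of MD-1 moved apart from those of its relative MD-2. Cd180, which encodes RP105, had 3.34 RPKM (79 reads) and 0.516 RPKM (36 reads), 6.47-fold lower in 4T1-GMP (interval 4.31 to 9.88). Its interval overlapped that of Ly86, so both members of this receptor complex were lower by amounts that counting error does not separate. Tlr4, the lipopolysaccharide receptor that pairs with MD-2, had 6.51 and 16.4 RPKM, 2.51-fold higher in 4T1-GMP (interval 2.00 to 3.19). Ly96, which encodes MD-2, had 2 and 11 reads, too few to be tested. Among transglutaminase relatives of F13a1, Tgm1 had 1.08 and 2.75 RPKM, 2.55-fold higher (interval 1.77 to 3.79), and Tgm2, Tgm3 and Tgm5 were under 0.2 RPKM in both libraries.

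Batf3 encodes an AP-1 family factor required for the cross-presenting dendritic subset (chromosome 1, 191097847 to 191108945, plus strand). It had 0.552 RPKM in NTB-GMP and was listed at 0 in 4T1-GMP. Its recovered length of 178 bases is shorter than its shortest GENCODE transcript of 438 bases, so the 1 read recovered in NTB-GMP is a lower bound, and no fold is given. Siglech encodes a lectin of plasmacytoid dendritic cells that signals through the adaptor DAP12 (chromosome 7, 55768178 to 55778925, plus strand). Its levels of 0.0820 RPKM and 0.0139 RPKM rested on 2 reads in NTB-GMP and 1 read in 4T1-GMP, both under the floor of 3 reads, so a difference was not detectable at this depth.

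Of the IRF factors that pair with BATF proteins, Irf8 had 31.96 RPKM (1117 reads) and 4.45 RPKM (459 reads), 7.18-fold lower in 4T1-GMP (interval 6.43 to 8.02), and Irf4 was under 0.1 RPKM in both. Among the relatives of Batf3, Batf2 was also low, at 0.0716 RPKM (1 read) and 0.413 RPKM (17 reads), and was not tested. Batf had 13.9 and 19.1 RPKM, 1.37-fold higher in 4T1-GMP (interval 1.04 to 1.83), and Jdp2 9.71 and 14.8 RPKM, 1.53-fold higher (interval 1.16 to 2.04). The JUN partners of the AP-1 dimer were split, with Jun 3.77-fold lower (interval 3.48 to 4.08), Jund 2.48-fold lower (interval 2.12 to 2.90) and Junb 1.63-fold higher (14.8 and 24.2 RPKM).

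Tyrobp, which encodes DAP12, the adaptor of Siglech, had 110 and 114 RPKM with an interval that included no change, and Hcst, which encodes the related adaptor DAP10, was 1.52-fold higher (interval 1.02 to 2.32). Siglece had 0.212 RPKM (4 reads) and 4.97 RPKM (276 reads), 23.4-fold higher in 4T1-GMP (interval 9.04 to 86.5). Its reads in NTB-GMP were close to the floor of 3 reads. Cd33 had 0.458 RPKM (12 reads) and 5.12 RPKM (395 reads), 11.2-fold higher (interval 6.32 to 21.8). Siglece and Cd33 encode lectins of myeloid cells. Siglecf, of eosinophils, and Siglecg, of B cells, were both present and lay within 1.5-fold, at 11.3 and 9.12 RPKM and at 7.75 and 7.08 RPKM.

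**Figure D3:**
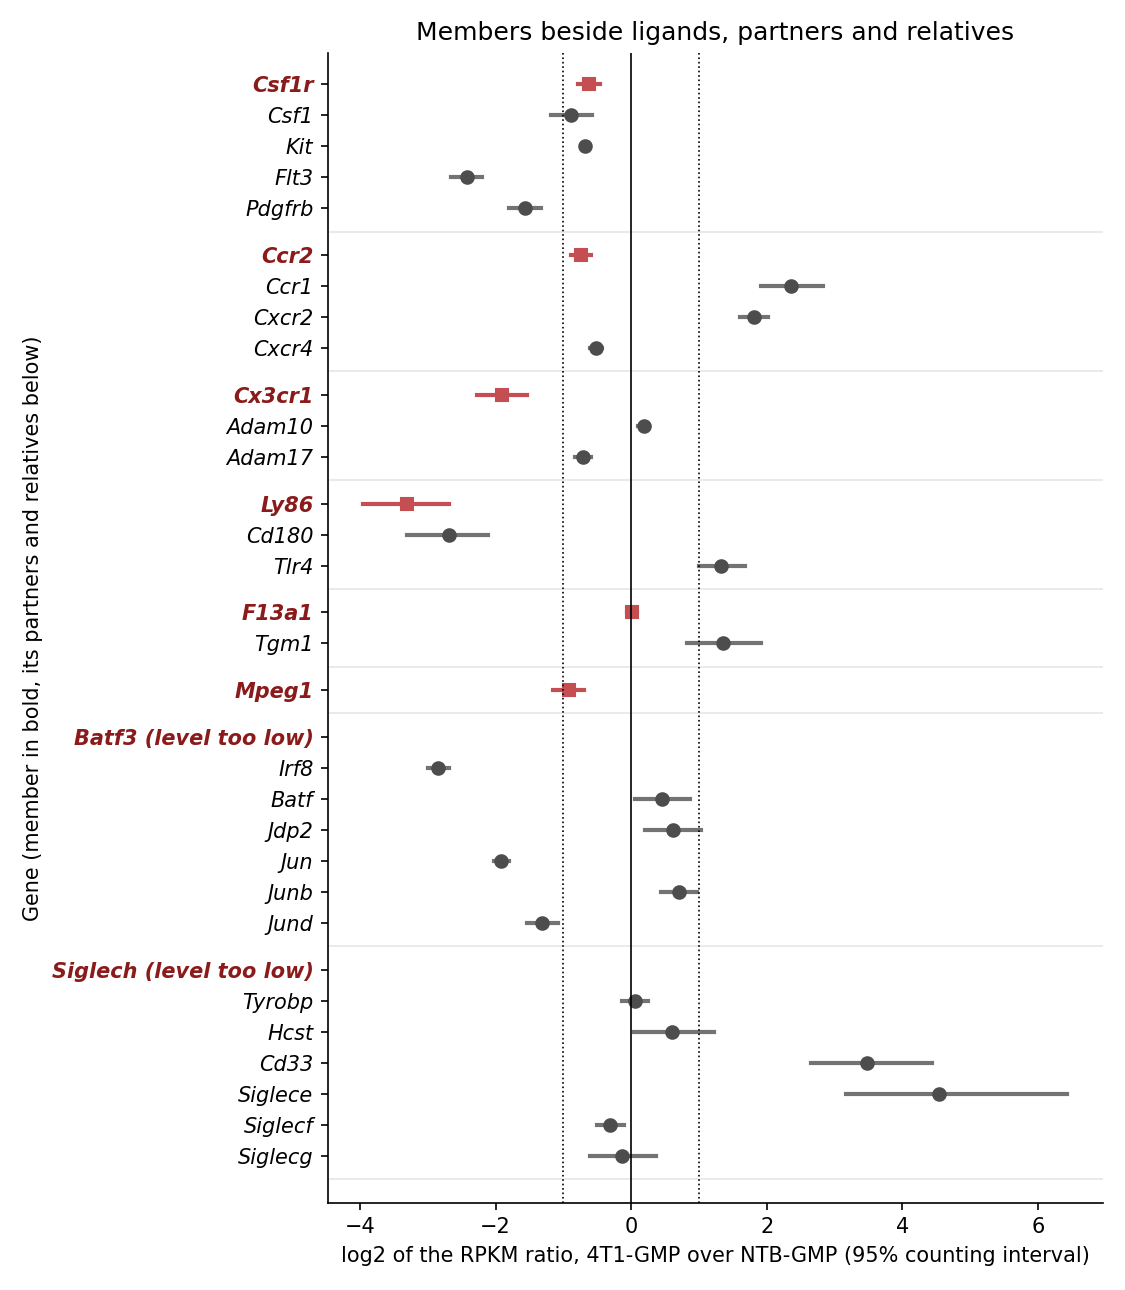
Log2 of the RPKM ratio, 4T1-GMP over NTB-GMP, with 95% Clopper-Pearson counting intervals, for the tested genes of the lineage set (red squares, bold) and their tested ligands, partners and relatives (gray circles); dotted lines mark 2-fold. Ly86 and Cd180 lie together on the left and Tlr4 on the right; Ccr2 lies left of 0 and Ccr1 right of it; Batf3 and Siglech are listed without a point because their levels were too low.

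Wider lists of the same lineages, from which the 8 genes were left out, were lower in 4T1-GMP to unequal degrees. Of 28 monocyte genes, 17 were tested, 4 were at least 2-fold lower and 0 at least 2-fold higher, with a median log2 ratio of -0.36. Among those tested, the largest decreases were in Ms4a6c (20.6 and 8.43 RPKM, log2 ratio -1.28), Ly6c2, which encodes the monocyte surface antigen Ly6C (88.7 and 36.8 RPKM, -1.27), and Pld4 (3.87 and 1.70 RPKM, -1.14). The largest log2 ratios of tested genes in the other direction were those of Cd14, a lipopolysaccharide coreceptor (3.61 and 7.30 RPKM), and Gpr141 (2.15 and 3.85 RPKM). Cd14 was short of the 2-fold line on the log2(RPKM + 0.1) scale (0.997) and past it as a plain ratio (2.02-fold). Below the level for testing, Ms4a4c had 1.14 and 0.155 RPKM (20 and 8 reads) and Tnfsf13b 0.116 and 0.647 RPKM (2 and 33 reads). The summed level of the monocyte list was 572 RPKM against 448 RPKM.

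The conventional dendritic list held 25 genes, of which 15 were tested, 8 were at least 2-fold lower and 0 at least 2-fold higher, with a median log2 ratio of -1.45. Genes of MHC class II antigen presentation led it. H2-DMb1 had 8.57 and 0.545 RPKM (log2 ratio -3.75), H2-Aa 21.0 and 1.75 RPKM (-3.52) and H2-Ab1 24.3 and 2.21 RPKM (-3.40). These log2 ratios lie near that of Ly86. Cd74 (-3.10) and H2-Eb1 (-2.62), also of this pathway, were among the 8 lower genes as well. The others of the 8 were Flt3 (-2.38), Dpp4 (-1.76) and Plbd1 (-1.45). The list median thus rests largely on genes of a single pathway, and Flt3 is also counted in the stem and early progenitor list. At the other end of the list were Sirpa (0.28), Naaa (-0.10) and Cst3, which encodes cystatin C (203 and 183 RPKM, -0.16). The summed level of the list was 442 RPKM against 286 RPKM. Defining genes of mature dendritic subsets were low and not tested. Clec9a, of the cross-presenting subset, had 1.25 RPKM (21 reads) and 0.142 RPKM (7 reads), and Clec10a had 0.654 and 0.866 RPKM. Cd209a was listed at 0 in both libraries, Zbtb46 had 6 reads in NTB-GMP and was listed at 0 in 4T1-GMP, and Xcr1 stayed below 0.3 RPKM.

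The plasmacytoid dendritic list held 20 genes, of which 8 were tested, 2 were at least 2-fold lower and 0 at least 2-fold higher, with a median log2 ratio of -0.94. The lower genes were Smim5 (1.99 and 0.496 RPKM, -1.81) and Ptprs (28.7 and 8.63 RPKM, -1.72). Smim5 rested on 19 and 14 reads, with a fold interval of 1.90 to 8.62, and Ptprs on 2037 and 1807 reads. Bcl11a and Runx2, transcription factors of this subset, both had log2 ratios of -0.97, so 4 of the 8 passed the line when ratios were centred on the median of all genes. Lair1 was highest at 0.49. The defining genes Pacsin1, Klk1, Cd300c and Mzb1 were listed at 0 in both libraries, and Ccr9 and Cox6a2 had 1 read in all. The summed level of the list was 104 RPKM against 70.5 RPKM.

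Of 20 transcription factors that act in monocyte and dendritic differentiation, 12 were tested, and Irf8 was the gene that was at least 2-fold lower. Spi1, which encodes PU.1, did not follow it, with 63.9 and 90.1 RPKM (log2 ratio 0.50). Nfil3 (1.87 and 5.57 RPKM, 1.52) and Cebpb (5.76 and 11.9 RPKM, 1.04) were at least 2-fold higher. Zeb2 (-0.97), Bcl11a (-0.97), Id2 (-0.88), Tcf4 (-0.66) and Etv6 (-0.66) were lower by less than 2-fold. Cebpb (fold interval 1.65 to 2.62), Zeb2 and Bcl11a lay close to the 2-fold line, so their side of it is not settled. Klf4, a factor of monocyte differentiation, was not among the genes tested and was 12.3-fold lower (1.48 and 0.120 RPKM, 46 and 11 reads, interval 6.29 to 26.4).

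**Figure D4:**
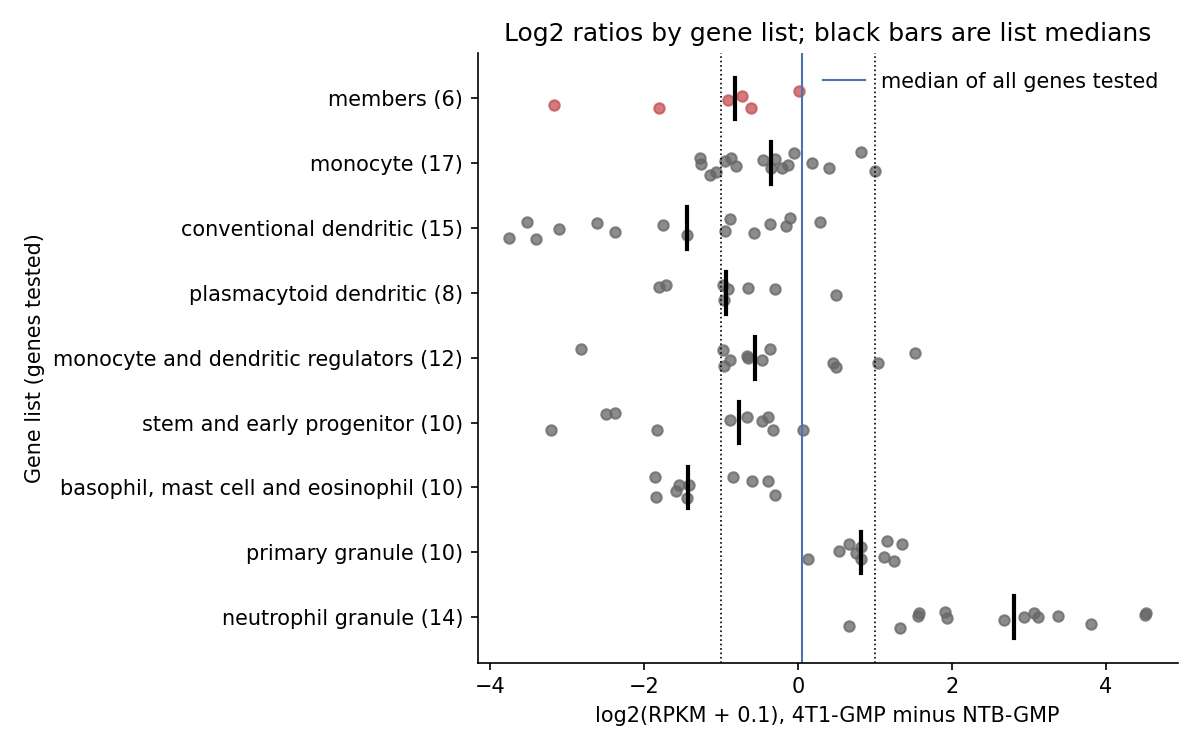
Log2(RPKM + 0.1) difference, 4T1-GMP minus NTB-GMP, of the tested genes of each list (1 point per gene, number tested in brackets), with list medians as black bars, the median of all genes tested as a blue line and dotted lines at 2-fold. Points of the lineage set and of the monocyte and dendritic lists lie mostly left of the blue line, those of the conventional dendritic list farthest (median -1.45, with MHC class II genes lowest), and the neutrophil granule genes lie to the right (median 2.81).

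Markers of other cells also differed between the libraries. Of 15 neutrophil granule genes, 14 were tested and 13 were at least 2-fold higher in 4T1-GMP, with a median log2 ratio of 2.81 and a summed level of 610 RPKM against 4344 RPKM. The largest differences were in Mmp9 (0.588 and 15.6 RPKM), Mmp8 (0.521 and 14.1 RPKM) and Retnlg (5.49 and 78.4 RPKM), and none of the 15 was at 0. Of 10 primary granule genes, 4 were at least 2-fold higher, with a median log2 ratio of 0.82. The part of these cells in the levels of the 8 genes, from F13a1 (49.1 and 49.6 RPKM) to Ly86 (9.56 and 0.969 RPKM), was not tested. Of 15 mature macrophage markers, 3 were tested and 1 was at least 2-fold higher, with a median log2 ratio of 0.38 over those 3. Slc40a1, the iron exporter, had 11.5 and 32.1 RPKM, Vcam1 16.7 and 19.0 RPKM, and Hmox1 1.25 and 1.65 RPKM. The others were below the level for testing and went in both directions. Adgre1 had 1.24 and 0.503 RPKM (41 and 49 reads), Cd163 12 and 3 reads, Axl 11 and 3 reads, and Spic 4 and 9 reads (0.311 and 0.237 RPKM). Mrc1 was higher in 4T1-GMP at 0.443 and 0.733 RPKM (24 and 117 reads), as was C1qa with 1 and 4 reads. C1qb (11 reads in NTB-GMP), Siglec1 (7 reads), C1qc (1 read) and Timd4 (1 read) were listed at 0 in 4T1-GMP. Mertk and Marco were listed at 0 in both libraries.

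With 2 values per gene, likeness to another gene says little, and the nearest gene outside the lists is given for each of the 6 tested genes as a description. Over both log2(RPKM + 0.1) values, Ear2, which encodes an eosinophil-associated ribonuclease, lay nearest to Ly86 (10.2 and 1.02 RPKM, distance 0.11). Israa lay nearest to Cx3cr1, H2-Ke6 to Mpeg1, Il16 to Ccr2, Abhd14a to Csf1r and Slc38a2 to F13a1, all at distances of 0.0331 or less. Outside the lists and within a distance of 0.5, Ly86 had 4 genes and Cx3cr1 67, whereas Csf1r had 700. Genes of the lists, including those of MHC class II, were not counted. Among genes outside the lists, the pattern of Ly86 was thus less common than that of Csf1r.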

How the data were processed

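RNA was measured by bulk RNA-seq in 1 library of sorted GMPs per group. The authors deposited RPKM, 1 value per gene symbol and library. The submitters' processing notes name the mm10 build, CASAVA 1.8.2, cutadapt 1.2.1, TopHat2 2.0.13, Picard 1.97, HTSeq 0.6.1 and edgeR 3.12.1, without their roles. Whether counting used strand is not given in the sources used here, so reads of transcripts that overlap Csf1r, F13a1, Cx3cr1 and Siglech cannot be told apart from theirs.

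Library sizes and whole reads were recovered from the digits of the RPKM for all 14833 genes above 0 and checked on data with known answers. For some genes, such as Mpeg1 and Batf3, the true counts are a multiple of those recovered. Ratios were 4T1-GMP over NTB-GMP on log2(RPKM + 0.1), over genes whose RPKM averaged 1 or more, with a 2-fold line (log2 of 1) and a floor of 3 reads. Fold values and their 95% Clopper-Pearson intervals carry no pseudocount. With 1 library per group, no test between conditions was made. The genes named were the members, the tested genes of the partner, relative and regulator lists, and the 3 largest rises and falls of each other list. Genes below a mean RPKM of 1, such as Klf4, and genes listed at 0 were named after their values were seen. So were Cd74, H2-Eb1, Dpp4 and Plbd1. Some genes of the lists are not reported here by name. The members and the 17 lists were chosen with earlier results of these data known. The alternatives tried were a pseudocount of 1 or of 0.01, no filter beyond a value above 0, a stricter filter at 5 RPKM, quantile normalization, centring on the median and library sizes without Rn45s. Gene positions came from GENCODE M21 and promoters from RefSeq (GRCm38.p6), with 7 of 8 genes matched. Computations used Python 3.11.15, numpy 2.4.6, pandas 2.3.3 and scipy 1.17.1.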

Additional observations from a re-analysis of the deposited data

How the results depend on the processing

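Of 41 values of the 6 tested genes under the alternatives, 36 lay within the counting interval of the value as reported and 5 beyond it: Ly86 (-2.42) and Cx3cr1 (-1.24) with a pseudocount of 1, F13a1 after quantile normalization (-0.18) and without Rn45s (-0.15), and Ccr2 without Rn45s (-0.90). The 2 of 6 genes at least 2-fold lower became 1 of 5 with a minimum mean RPKM of 5, which leaves out Cx3cr1. The count was 3 of 6 without Rn45s, where Mpeg1 passed the line. It was 3 of 8 over all genes above 0, where Batf3, listed at 0 in 4T1-GMP, entered. Of 35 counts over lists, 26 stayed within 1.5 times. The 4 of 17 monocyte genes became 2 of 17 with a pseudocount of 1 and 2 of 11 with a minimum of 5. The 8 of 15 conventional dendritic genes became 13 of 24 over all genes above 0, a similar share. The 2 of 8 plasmacytoid genes became 1 of 8 with a pseudocount of 1, and 4 of 16 over all genes above 0. They became 1 of 6 with a minimum of 5, 4 of 8 after centring and 5 of 8 without Rn45s. Over all genes tested, 2.88% were at least 2-fold lower with a pseudocount of 1 and 5.39% after centring. The share was 6.75% without Rn45s, 8.40% over all genes above 0 and 2.27% with a minimum of 5. A changed filter changes which genes are counted, and a larger pseudocount shrinks the ratios of low genes; for the other alternatives the cause was not tested. Depth limits Siglech, and for Batf3 the true number of reads is not known. No paired analysis was possible because neither group held more than 1 library; for that reason no replicate was left out.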

Other observations

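The lower levels were not limited to the monocyte and dendritic lists. Of 10 basophil, mast cell and eosinophil genes, 6 were at least 2-fold lower in 4T1-GMP, with a median log2 ratio of -1.43, and Ms4a2 (47.9 and 13.1 RPKM), Prg3 (63.8 and 17.7 RPKM) and Prg2 (1208 and 403 RPKM) showed the largest differences. Of 14 stem and early progenitor genes, 10 were tested and 4 were at least 2-fold lower (median -0.77), led by Angpt1 (24.7 and 2.59 RPKM) and Gata2 (29.5 and 5.14 RPKM). The tested genes of the erythroid list, Gata1 and Klf1, and of the megakaryocyte list, Itga2b and Gp9, were also at least 2-fold lower. The hemoglobin genes of the erythroid list were listed at 0 in both libraries. Of 8 mammary carcinoma genes, Krt14, Krt5, Krt19, Epcam and Cldn4 were listed at 0 in both, and Krt18 (12.8 and 8.90 RPKM) and Cdh1 (5.36 and 1.04 RPKM) were tested. Of the lymphoid lists, 1 of 10 B cell genes was tested, Cd79b, with 14.7 and 12.4 RPKM, and 1 of 12 T and NK cell genes, Gzmb, with 17.3 and 1.91 RPKM.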
